A study of Mus musculus with 4 samples.

Results

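Genes of the somites and the paraxial mesoderm were chosen by name, and the CTCF and RAD21 peaks around them were read from peak lists of mouse gastruloids. The genes were Meox2, Tcf15, Mesp1, Mesp2, Uncx, Tbx18, Pax1, Foxc1, Foxc2 and Aldh1a2, 10 of 21779 protein-coding genes placed on the genome. A CTCF site was counted for a gene where a peak summit, the point of highest signal, lay within 50 kb of the gene body, and 58 of 56026 CTCF sites met this rule. CTCF was mapped by ChIPmentation, a chromatin immunoprecipitation in which a transposase adds the adapters, in 2 HoxB mutants and in wild type. As the labels write the genotypes, the mutant called DelCBS7-10 here has Del on one HoxB copy and, on the other, Del(i9-13) together with Ins(CBS5-10) and Del(CBS7-10), and InsCBS5-10 has the same alleles without the last. RAD21 was mapped in InsCBS5-10, and a further RAD21 list carries the name of wild type in its peak names but has no sample labels of its own. Gastruloids are embryonic stem cells grown as aggregates until they elongate and form axial tissues, and here they were collected 96 h after aggregation and pooled, with 1 library per group. HoxB lies on chromosome 11, and none of the 10 genes lies on that chromosome.

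Somites are blocks of paraxial mesoderm that bud off along the axis and give rise to vertebrae, ribs and skeletal muscle. CTCF binds a long DNA motif and halts cohesin, the ring complex that extrudes chromatin loops and of which RAD21 is a subunit, so that sites with both proteins often mark loop ends. The genes fall into pattern formers at the segment border (Mesp1, Mesp2), genes of the anterior and the posterior compartment of each somite (Tbx18, Uncx), forkhead factors (Foxc1, Foxc2), factors of somite form and differentiation (Tcf15, Meox2, Pax1) and Aldh1a2, which makes retinoic acid. Peak lists hold no transcript levels, so expression of these genes in the gastruloids was not measured and the cell types could not be checked.

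Each of the 3 CTCF lists had a peak near all 10 genes. The same was true of 82.6% of 20177 protein-coding genes outside chromosome 11, so the count is close to what a gene of any kind shows. Among all genes a site was found for 85.8% in DelCBS7-10, 84.6% in InsCBS5-10 and 90.0% in wild type. At least 1 site called in all 3 CTCF lists was found near each of the 10, against 81.4% of all genes, and a CTCF site with RAD21 in InsCBS5-10 was found near each of them, against 75.4%. For the RAD21 list named wild type the count was also 10 of 10, against 86.2%. The genes had a median of 7 sites, ranging from 2 by Meox2 to 9 by Foxc2, and all genes had a median of 5 with quartiles of 2 and 7. Long genes have wider windows, and per 100 kb of window the count was highest at Foxc2 with 8.76 and lowest at Meox2 with 1.17.

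**Figure D1:**
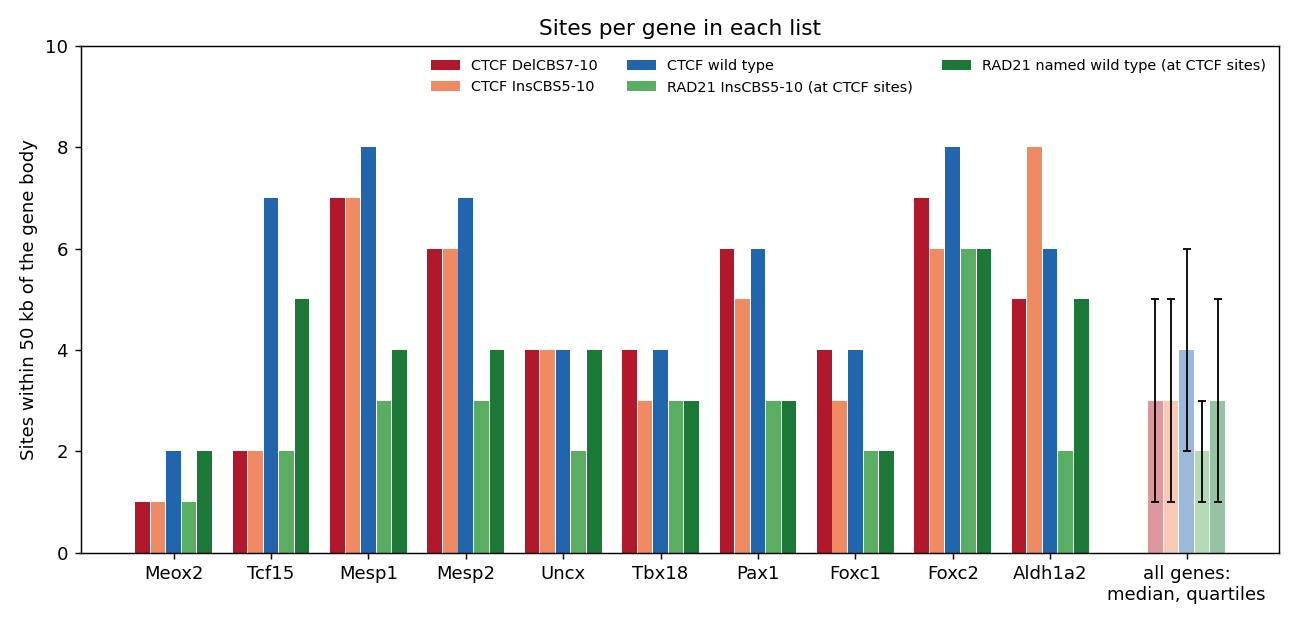
Number of CTCF sites within 50 kb of each gene body in the 3 CTCF lists, and of those sites with RAD21 in the 2 RAD21 lists. The faded bars on the right give the median over all protein-coding genes outside chromosome 11, with whiskers at the quartiles. Meox2 has 1 or 2 sites in each list, and Foxc2 has 6 to 8.

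Of the 58 sites, 32 were called in all 3 CTCF lists (55.2%, exact 95% interval 41.5 to 68.3, counting error only). Over all sites outside chromosome 11 the share was 48.7%, which lies inside that interval. DelCBS7-10 held 40 of the 58, InsCBS5-10 39 and wild type 49, and the shares of all sites were 64.6% in DelCBS7-10, 60.8% in InsCBS5-10 and 85.0% in wild type. Sites called in a single list numbered 4 in DelCBS7-10, 3 in InsCBS5-10 and 13 in wild type, against shares of all sites of 7.58% in DelCBS7-10, 5.99% in InsCBS5-10 and 24.8% in wild type. These were mostly weak. Their fold enrichment, the authors' ratio of the summit's signal over the background around it in that library, was 4.1 to 4.52 in DelCBS7-10, 3.36 to 5.38 in InsCBS5-10 and 2.72 to 6.09 in wild type, and 1 of the 20 lay above the middle of its list. How many of all single-list sites lay above the middle was not counted, so this is not shown to be particular to these genes. The remaining 6 sites were shared by 2 lists, and of these 2 were called in both mutants but not in wild type (1.43% of all sites). With 1 library per group none of these differences has a replicate check, and no p-value is given.

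Strength is given below as fold enrichment and as the percentile of that value within the same list. The 32 sites common to all 3 lists had a median percentile of 71.4 in DelCBS7-10, 70.2 in InsCBS5-10 and 77.3 in wild type. Sites missing from at least 1 list had medians of 35.2 in DelCBS7-10, 39.6 in InsCBS5-10 and 31.6 in wild type. These medians were not set against those of all sites, so the gap is not shown to be particular to these genes. The lists differ in length (36589 peaks in DelCBS7-10, 34499 in InsCBS5-10 and 47931 in wild type), so a percentile that differs between lists is not a measured change. Summits of the 32 common sites lay a median of 42.5 bp apart across the lists.

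RAD21 calls near these genes followed the pattern of all CTCF sites, with a larger share of the common sites than of the others. In InsCBS5-10, RAD21 was called at 24 of the 58 sites, against 33.4% of all sites, and at 20 of the 32 common ones (62.5%, 43.7 to 78.9) against 57.4% of all common sites. Of the 26 sites missing from a CTCF list, 4 carried it (15.4%, 4.36 to 34.9, exact 95% interval), against 10.5% of all such sites. In the RAD21 list named wild type, where InsCBS5-10 has 19610 peaks and this list 59484, the counts were 34 of 58 sites against 61.1% of all, and 25 of the 32 common ones (78.1%, 60.03 to 90.7) against 89.1%, and 9 of the 26 others (34.6%, 17.2 to 55.7) against 34.5%. All but 1 of the 24 RAD21 sites of InsCBS5-10 were in that list too. CTCF and RAD21 summits of InsCBS5-10 were a median of 28 bp apart.

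**Figure D2:**
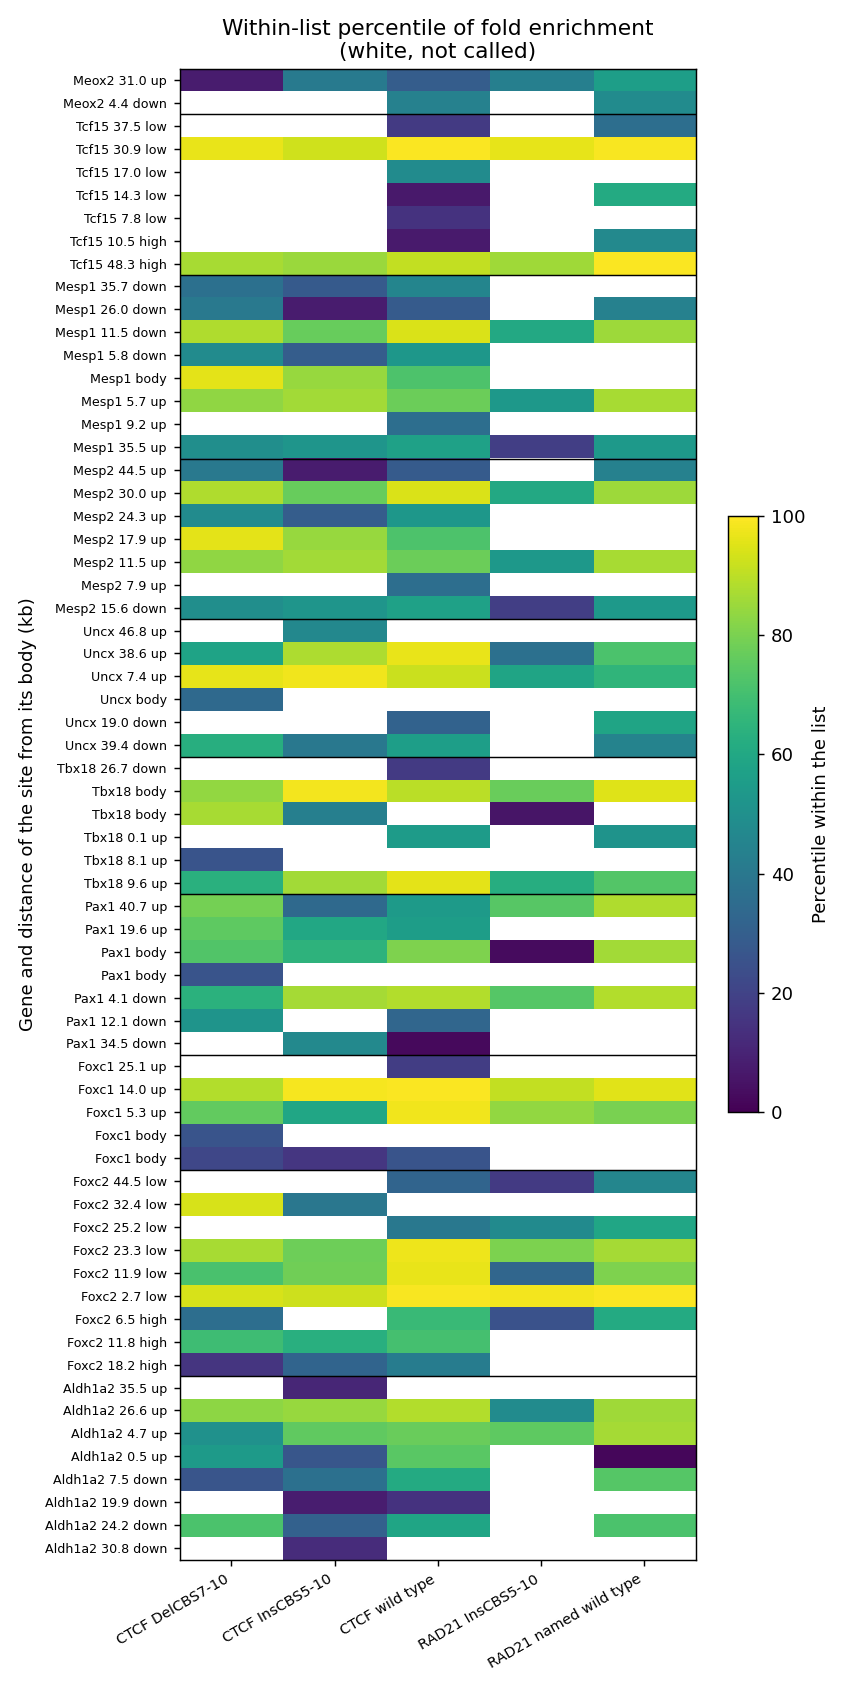
Within-list percentile of fold enrichment at each CTCF site in the 5 lists, with white where no peak was called. Rows are sites ordered along the chromosome within each gene and labelled by distance from the gene body in kb (up, upstream; down, downstream; low and high, the lower and higher coordinate side where strand was not at hand). The sites by Mesp1 and Mesp2 overlap and are drawn under both genes. The 32 sites filled in all 3 CTCF columns include 25 with a RAD21 call in the list named wild type and 7 with none in either RAD21 list.

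Mesp1 and Mesp2, paired basic helix-loop-helix factors of nascent mesoderm and of the forming segment border, lie next to each other on chromosome 7 (79792241 to 79793590 on the minus strand and 79810727 to 79813431 on the plus strand, mm10), 17.1 kb apart. They share 7 sites, and 1 more reached only the window of Mesp1. A CTCF peak lay within Mesp1 itself, at 79792616 to 79793120, with a fold enrichment of 9.39 in DelCBS7-10, 8.15 in InsCBS5-10 and 8.26 in wild type. That placed it at percentile 95.7 in DelCBS7-10, 84.8 in InsCBS5-10 and 72.0 in wild type, and neither RAD21 list had a peak over it. It was the strongest DelCBS7-10 site near either gene. Of the 32 common sites near the 10 genes 7 lacked RAD21 in both lists, against 10.0% of all common sites.

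A CTCF site with RAD21 stood on each side of that peak. The site between both genes, 5.66 kb upstream of Mesp1 and 11.5 kb upstream of Mesp2 (79799010 to 79800187), had a fold of 7.48 in DelCBS7-10, 8.30 in InsCBS5-10 and 9.04 in wild type, and RAD21 over it had 6.40 in InsCBS5-10 and 8.12 in the list named wild type. The site 11.5 kb downstream of Mesp1, within the neighbouring gene Wdr93, had 7.99 in DelCBS7-10, 7.39 in InsCBS5-10 and 12.7 in wild type. Its RAD21 values were 6.92 in InsCBS5-10 and 7.82 in the list named wild type. Each Mesp gene thus lay between CTCF-RAD21 sites, with the one between both genes shared. Around Mesp1 they were 18.6 kb apart in both genotypes, and around Mesp2 30.5 kb in InsCBS5-10 and 29.8 kb in wild type. Here and below, RAD21 for such sites in wild type is taken from the list named wild type. No other protein-coding gene lay wholly inside either stretch. Beyond Mesp2 the closing site was in Anpep, an aminopeptidase gene, 15.6 kb downstream, at 5.27 in DelCBS7-10, 5.69 in InsCBS5-10 and 6.41 in wild type. This last was a broad peak, 1349 bp wide in DelCBS7-10, 1544 bp in InsCBS5-10 and 1688 bp in wild type. Peaks of 1000 bp or more made up 1.0% of the DelCBS7-10 list, 0.951% of the InsCBS5-10 list and 0.373% of the wild-type list. The weakest shared site was 26.0 kb downstream of Mesp1, with folds of 4.84 in DelCBS7-10, 3.16 in InsCBS5-10 and 3.82 in wild type, and the only site that differed in its call was in wild type alone, 7.92 kb upstream of Mesp2, at 4.32.

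**Figure D3:**
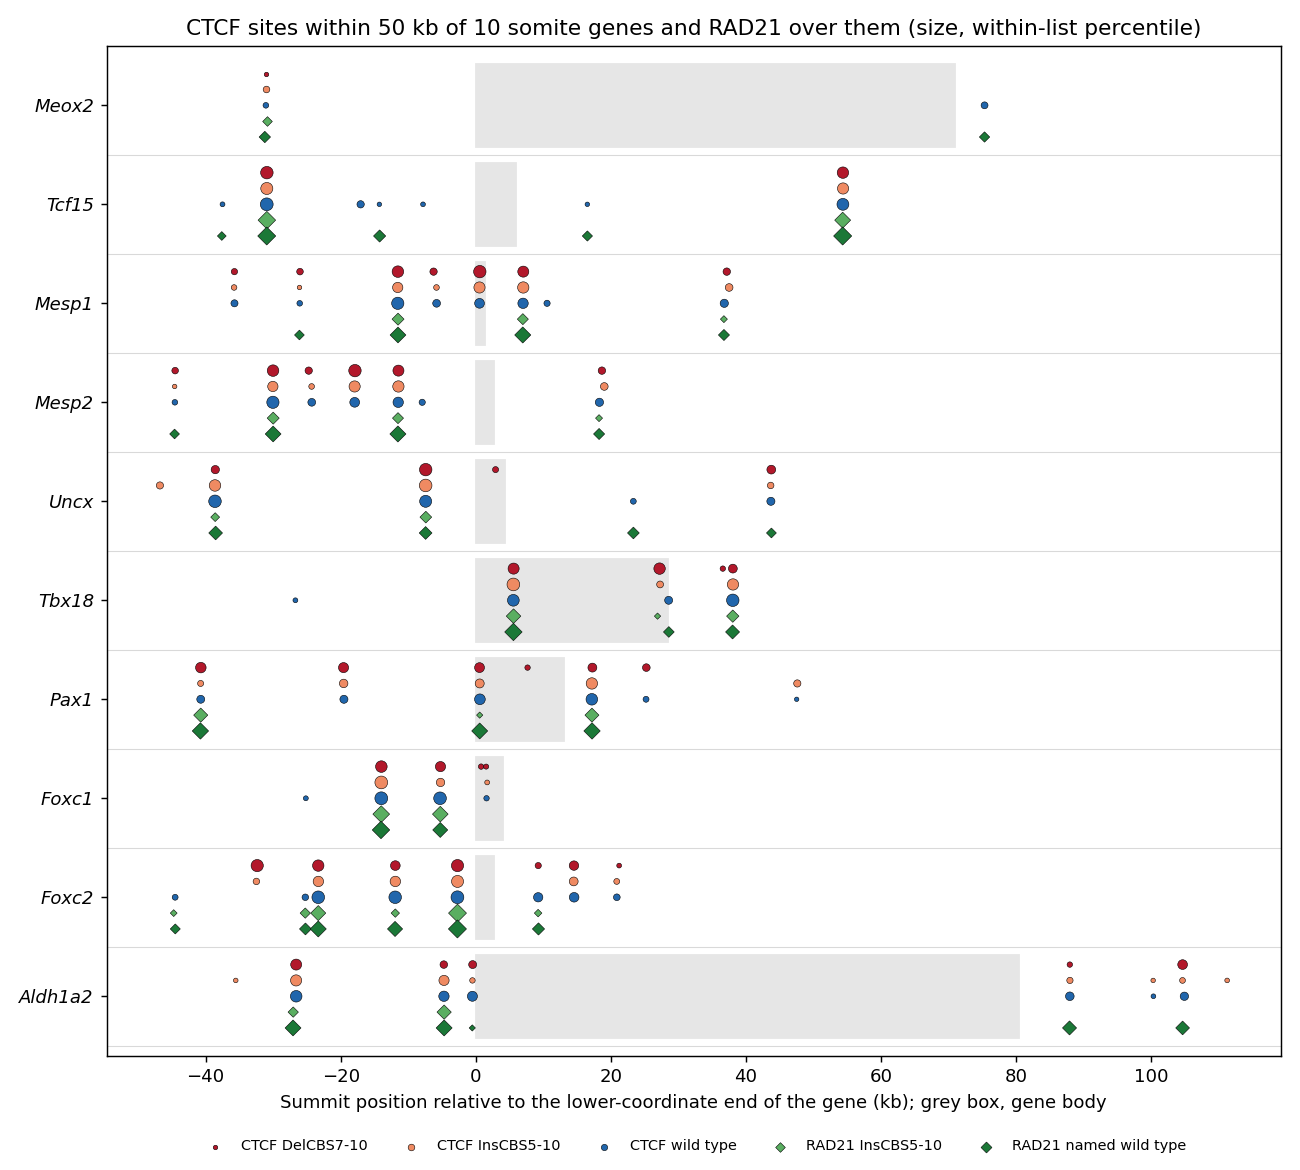
Positions of CTCF summits (circles) and of RAD21 summits over the same sites (diamonds) around each gene, in kb from its lower-coordinate end, with a larger mark for a higher within-list percentile. From top to bottom in each row the lists are CTCF in DelCBS7-10, InsCBS5-10 and wild type, then RAD21 in InsCBS5-10 and in the list named wild type. Columns of 5 marks are sites with every call, such as both strong sites around Tcf15 and both strong sites upstream of Foxc1.

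Tbx18, a T-box factor of the anterior somite compartment, lies on chromosome 9 (87702800 to 87731260, minus strand). It had the clearest difference in calls around a transcription start. DelCBS7-10 had a peak at 87729480 to 87731042, inside the first part of the gene, 1563 bp wide with a fold of 7.88 and percentile 87.0. InsCBS5-10 had a narrower one there, 518 bp, at 5.15 and percentile 43.2, and wild type had none. RAD21 was called over it in InsCBS5-10 at 3.37, low in its list (percentile 5.85), and was not called in the list named wild type. Wild type had a separate peak at 87731307 to 87731693, just upstream of the start, with a fold of 6.09 and percentile 54.8. It began 265 bp beyond the end of the DelCBS7-10 peak, and the InsCBS5-10 peak ended further off, at 87730278. RAD21 over this wild-type peak was at 4.29 in the list named wild type. Neither mutant had a peak at this other position. The mutant peaks thus lay inside the gene, with summits at 87730026 in DelCBS7-10 and 87730104 in InsCBS5-10, more than 1 kb from the start. Only the wild-type summit, at 87731370, lay within 1 kb of it.

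The stretch before the Tbx18 start is shown because the wild-type peak covers 204 of its 250 bases and the mutant peaks none. It is chr9:87731261-87731510 on the minus strand of GRCm38.p6, taken from RefSeq, and reads towards the gene. It was searched on both strands for a core of the CTCF motif (CC, any 3 bases, AG, any 2 bases, GGC), which is in capitals where found, and it holds none.
Tbx18 promoter: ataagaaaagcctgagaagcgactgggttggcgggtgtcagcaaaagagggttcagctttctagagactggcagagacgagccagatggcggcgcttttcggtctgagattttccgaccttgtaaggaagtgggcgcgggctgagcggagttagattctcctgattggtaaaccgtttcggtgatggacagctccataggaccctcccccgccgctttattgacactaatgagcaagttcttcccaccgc
No match says only that these letters are absent from this window. Promoter windows in the RefSeq table run from 250 bases before to 50 after a start. The core was found in 8.53% of 30526 such windows outside chromosome 11, in 38.6% of the 1092 under a CTCF peak of all 3 lists, in 22.0% of the 1270 under a peak of 1 or 2 lists, as the Tbx18 window is, and in 6.75% of those under no CTCF peak.

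Of the other Tbx18 sites, 2 were in all 3 CTCF lists and 2 were weak peaks of a single list. A site in the gene body at 87708122 to 87708746 had a fold of 7.53 in DelCBS7-10, 11.5 in InsCBS5-10 and 11.4 in wild type, with RAD21 at 8.40 in InsCBS5-10 and 9.98 in the list named wild type. A site 9.61 kb upstream had 6.04 in DelCBS7-10, 8.31 in InsCBS5-10 and 13.5 in wild type, with RAD21 at 7.07 in InsCBS5-10 and 6.11 in the list named wild type. The single-list peaks were 8.13 kb upstream in DelCBS7-10, at 4.1, and 26.7 kb downstream in wild type, at 3.16, and neither had RAD21. On the far side of the gene body no site with both proteins was found until 277 kb downstream in InsCBS5-10 and in wild type. That was the longest such distance on either side of any of the 10 genes in wild type.

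Uncx, a homeobox gene of the posterior somite compartment (chromosome 5, 139543865 to 139548179, plus strand), had its strongest DelCBS7-10 and InsCBS5-10 site 7.41 kb upstream. There the fold was 9.53 in DelCBS7-10, 11.1 in InsCBS5-10 and 12.0 in wild type, at percentiles 96.2 in DelCBS7-10, 97.7 in InsCBS5-10 and 92.1 in wild type. RAD21 at that site was moderate, at 6.75 in InsCBS5-10 (percentile 58.3) and 5.31 in the list named wild type (percentile 65.5). Another upstream site, 38.6 kb away, had 5.73 in DelCBS7-10, 8.53 in InsCBS5-10 and 13.9 in wild type. Downstream the lists parted. A site 19.0 kb away was called in wild type alone, at 4.01 with RAD21 at 4.74 in the list named wild type, so that the stretch between CTCF-RAD21 sites around Uncx was 132 kb in InsCBS5-10 and 30.8 kb in wild type. The site 39.4 kb downstream was in all 3 CTCF lists (6.0 in DelCBS7-10, 4.98 in InsCBS5-10 and 6.24 in wild type) but had RAD21 only in the list named wild type (3.94). The body of Uncx held a peak in DelCBS7-10 alone, at 4.52, and a site 46.8 kb upstream was called in InsCBS5-10 alone, at 5.38.

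Foxc1 and Foxc2, forkhead factors that act together in paraxial mesoderm and somite formation, had some of the strongest sites of the group. At Foxc1 (chromosome 13, 31806646 to 31810635, plus strand) both strong sites were upstream. The site 14.0 kb away had a fold of 8.04 in DelCBS7-10, 12.1 in InsCBS5-10 and 17.3 in wild type, at percentiles 88.5, 98.8 and 99.4 of those lists, with RAD21 at 10.4 in InsCBS5-10 and 10.1 in the list named wild type. The site 5.28 kb away had 6.88 in DelCBS7-10, 6.14 in InsCBS5-10 and 14.7 in wild type, at percentiles 76.0, 59.0 and 97.9. On the downstream side no CTCF site was called within 50 kb, and the nearest with RAD21 lay 146 kb away in InsCBS5-10 and 101 kb in wild type, both in Gmds, a fucose-pathway enzyme gene. Within Foxc1 itself only weak peaks were called: 3.85 in DelCBS7-10, 3.65 in InsCBS5-10 and 3.61 in wild type at 31807965 to 31808705, and 4.11 in DelCBS7-10 alone at 31807271 to 31807528. No RAD21 lay over these, nor over a peak 25.15 kb upstream that was called in wild type alone, at 3.24.

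Of the 8 genes with a promoter window in the RefSeq table, Foxc1 was the only one whose window held the CTCF core, and no list had a peak over it. The sequence is given for that reason, from chr13:31806396-31806645 on the plus strand of GRCm38.p6, with the core in capitals.
Foxc1 promoter: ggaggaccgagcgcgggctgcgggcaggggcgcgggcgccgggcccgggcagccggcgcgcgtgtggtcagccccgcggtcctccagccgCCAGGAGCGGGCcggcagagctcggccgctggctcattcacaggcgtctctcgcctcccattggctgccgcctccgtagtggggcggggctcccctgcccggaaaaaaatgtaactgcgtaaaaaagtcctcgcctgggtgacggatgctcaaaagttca
A match to the letters is not a binding site. Among the 8 windows none was under a CTCF peak of DelCBS7-10 (4.95% of all windows) or InsCBS5-10 (4.08%), and that of Tbx18 was under one of wild type (6.99%; 7.74% in any list).

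Foxc2 (chromosome 8, 121116171 to 121118895) had 9 sites, the most of the group, and 6 of them carried RAD21 in each RAD21 list. The site nearest the gene, 2.70 kb to its lower side at 121113232 to 121113699, was among the strongest of every list. Its fold was 8.97 in DelCBS7-10, 9.29 in InsCBS5-10 and 16.5 in wild type, at percentiles 94.1, 92.5 and 99.2, and RAD21 over it was at 13.2 in InsCBS5-10 and 12.2 in the list named wild type, at percentiles 98.3 and 99.3. Next came sites within Mthfsd, the neighbouring gene. At 23.3 kb the fold was 7.85 in DelCBS7-10, 7.50 in InsCBS5-10 and 14.5 in wild type. At 11.9 kb it was 6.53 in DelCBS7-10, 7.53 in InsCBS5-10 and 13.9 in wild type. Both carried RAD21 in both lists. A site over Foxl1, another forkhead gene, 11.8 kb to the higher side, had 6.39 in DelCBS7-10, 6.40 in InsCBS5-10 and 8.07 in wild type and no RAD21.

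A peak on the lower side of Foxc2, 32.4 kb away at 121083155 to 121084247, was called in both mutants and not in wild type. In DelCBS7-10 it was 1093 bp wide, with a fold of 8.97, a −log10 q of 44.3 and percentile 94.1. In InsCBS5-10 it was 443 bp wide, with a fold of 4.96, a −log10 q of 6.19 and percentile 39.6. No RAD21 was called there in either list. The site ends 139 bp before Foxf1, a forkhead gene of lateral mesoderm, and its DelCBS7-10 peak reaches into the promoter window of Fendrr, a long non-coding RNA gene on the minus strand, where the InsCBS5-10 peak does not. It and the peak in the first part of Tbx18 were the only 2 of the 58 sites called in both mutants and not in wild type. Both were broad in DelCBS7-10, where the median peak was 321 bp wide. The site near Foxc2 had the start of Fendrr within 1 kb of its strongest summit, and the Tbx18 site had no listed start within 1 kb. Whether breadth goes with such calls was not tested.

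The Fendrr window is printed because 206 of its 300 bases lie under the DelCBS7-10 peak and none under a peak of InsCBS5-10 or wild type. It is chr8:121083061-121083360 on the minus strand of GRCm38.p6 (RefSeq), and holds no CTCF core. It has 31 CG dinucleotides, against a median of 7 over all windows, 21 over windows under a CTCF peak of 1 or 2 lists, as this one is, and 18 over those under a peak of all 3.
Fendrr promoter: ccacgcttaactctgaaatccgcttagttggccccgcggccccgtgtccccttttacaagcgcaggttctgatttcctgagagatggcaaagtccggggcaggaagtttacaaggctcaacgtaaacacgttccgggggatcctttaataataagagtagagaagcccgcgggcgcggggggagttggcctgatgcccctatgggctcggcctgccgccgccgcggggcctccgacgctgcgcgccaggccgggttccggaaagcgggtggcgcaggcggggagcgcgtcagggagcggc
Weaker sites of Foxc2 differed in other ways. At 25.2 kb and 44.5 kb to the lower side CTCF was called in wild type alone, at 4.63 and 4.04, and RAD21 was called over them in InsCBS5-10, at 6.04 and 4.13, as well as in the list named wild type, at 4.82 and 4.00. Where a list holds no peak, CTCF may still be bound below the caller's limit. A site 6.53 kb to the higher side had 4.59 in DelCBS7-10, no call in InsCBS5-10 and 7.68 in wild type, with RAD21 at 4.61 in InsCBS5-10 and 4.95 in the list named wild type.

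Tcf15, or paraxis, the basic helix-loop-helix factor that somites need to become epithelial, lies on chromosome 2 (152143056 to 152149097) between a pair of strong sites. The one 30.9 kb to its lower side, at 152111906 to 152112292, had a fold of 9.69 in DelCBS7-10, 9.34 in InsCBS5-10 and 17.1 in wild type, at percentiles 96.6, 92.7 and 99.4. RAD21 over it was at 11.8 in InsCBS5-10 and 11.7 in the list named wild type. The other, 48.3 kb to the higher side, had 7.88 in DelCBS7-10, 8.17 in InsCBS5-10 and 11.7 in wild type, with RAD21 at 9.50 in InsCBS5-10 and 12.3 in the list named wild type. No other protein-coding gene lay between them, and in both mutants no CTCF peak was called in the 85.3 kb from one to the other. In wild type 4 weak peaks lay inside it and 1 outside, at Srxn1, all called in that list alone with folds of 2.72 to 5.41. RAD21 was called at 3 of these 5 in the list named wild type, at 3.62 to 4.94, and at none of them in InsCBS5-10.

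Meox2, a homeobox gene of the somites and limb muscle (chromosome 12, 37108540 to 37179534, plus strand), was the poorest in CTCF. Its only site common to all 3 lists was 31.0 kb upstream, with a fold of 3.14 in DelCBS7-10, 5.03 in InsCBS5-10 and 3.83 in wild type, at percentiles 7.54, 40.8 and 29.5. With a −log10 q of 1.49 in DelCBS7-10 this call was near the authors' limit. RAD21 was called over it at 5.73 in InsCBS5-10 and 4.59 in the list named wild type. A peak 4.35 kb downstream was called in wild type alone, at 4.96, with RAD21 at 4.13 in the list named wild type. The next downstream site with both proteins in InsCBS5-10 was 271 kb away, within Agmo, and the stretch of 373 kb was the widest around any of the 10 genes.

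Pax1, a paired-box factor of the sclerotome, the part of the somite that forms vertebrae (chromosome 2, 147361930 to 147375049, plus strand), had 4 sites common to all lists. The strongest in wild type was 4.08 kb downstream, with a fold of 6.07 in DelCBS7-10, 8.36 in InsCBS5-10 and 11.1 in wild type, and RAD21 at 8.03 in InsCBS5-10 and 8.44 in the list named wild type. A site over the 5' end of the annotated gene body had 6.64 in DelCBS7-10, 6.5 in InsCBS5-10 and 9.55 in wild type for CTCF. RAD21 there was at 3.12 in InsCBS5-10, percentile 3.04, but 7.97 in the list named wild type, percentile 86.0. The Pax1 start used for the promoter window lies further in, at 147364994, and no CTCF peak covered that window. The site 40.7 kb upstream had 7.12 in DelCBS7-10, 4.65 in InsCBS5-10 and 6.07 in wild type, and RAD21 over it was at 8.09 in InsCBS5-10 and 8.37 in the list named wild type. Together with the downstream site it bounds 57.9 kb that hold Pax1 and no other protein-coding gene, in InsCBS5-10 as in wild type. That stretch also holds the site over the 5' end of the gene body and the remaining common site, 19.6 kb upstream. The latter had 6.80 in DelCBS7-10, 6.19 in InsCBS5-10 and 6.20 in wild type, with no RAD21 in either list. Weaker sites were called in 1 or 2 of the lists: 4.11 in the gene body in DelCBS7-10 alone, 5.39 in DelCBS7-10 and 4.06 in wild type 12.1 kb downstream, and 5.41 in InsCBS5-10 and 2.62 in wild type 34.5 kb downstream.

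Aldh1a2, the retinaldehyde dehydrogenase that makes retinoic acid in the trunk (chromosome 9, 71215789 to 71296243, plus strand), had CTCF close to its start in every list. The site 0.485 kb upstream, at 71215155 to 71215515, had a fold of 5.56 in DelCBS7-10, 4.23 in InsCBS5-10 and 8.57 in wild type. RAD21 was not called over it in InsCBS5-10 and stood at 2.34, percentile 1.64, in the list named wild type. By contrast the next site, 4.70 kb upstream, had CTCF at 5.34 in DelCBS7-10, 7.30 in InsCBS5-10 and 9.02 in wild type, and RAD21 at 8.20 in InsCBS5-10 and 8.03 in the list named wild type. The site 26.6 kb upstream had 7.44 in DelCBS7-10, 8.13 in InsCBS5-10 and 11.04 in wild type, with RAD21 at 6.06 in InsCBS5-10 and 7.93 in the list named wild type. On the downstream side the sites 7.51 kb and 24.2 kb away were in all 3 CTCF lists, but RAD21 was called over them only in the list named wild type, at 6.19 and 5.97. A few weak sites completed the set, at 3.18 in InsCBS5-10 and 3.11 in wild type 19.9 kb downstream, and in InsCBS5-10 alone at 3.36 and 3.43.

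The sequence of the site at the Aldh1a2 start is shown because it holds the CTCF core close to the summit of all 3 lists. It is chr9:71215192-71215491 on the plus strand of GRCm38.p6, read here towards Aldh1a2 from the promoter window of Gm3458, a non-coding RNA gene on the other strand, in RefSeq.
Aldh1a2 upstream site: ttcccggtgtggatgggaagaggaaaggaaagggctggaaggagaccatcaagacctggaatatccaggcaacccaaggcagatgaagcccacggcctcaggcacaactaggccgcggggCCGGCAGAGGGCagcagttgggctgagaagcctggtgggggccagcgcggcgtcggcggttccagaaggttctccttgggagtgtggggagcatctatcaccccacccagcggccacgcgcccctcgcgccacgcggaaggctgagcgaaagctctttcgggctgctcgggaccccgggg
The capitals mark the core, at 71215312 to 71215323 on the plus strand. Its middle was 21.5 bp from the summit in DelCBS7-10, 9.5 bp in InsCBS5-10 and 13.5 bp in wild type. Only sites under a promoter window could be read in this way, so the orientation of the other motifs was not analysed here.

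Sites inside a gene body were left out of the next comparison. The stretches around Tbx18 and Pax1 thus each hold at least 1 site with both proteins. The nearest sites with both CTCF and RAD21 outside the gene body on each side were compared over the 10 genes. In InsCBS5-10 they were a median of 119 kb apart, from 18.6 kb at Mesp1 to 373 kb at Meox2, and over all protein-coding genes outside chromosome 11 the median was 192 kb with quartiles of 98.3 and 413 kb. For wild type the RAD21 calls were those of the list named wild type, which has no sample labels. There the median was 44.3 kb, from 12.0 kb at Foxc2 to 306 kb at Tbx18. Over all genes it was 110 kb with quartiles of 55.4 and 239 kb. The 44.3 kb rests partly on weak peaks, since with peaks of a −log10 q of 5 or more it was 71.6 kb. The median was thus smaller in wild type over all genes too, where both lists are longer. Around Mesp1, Mesp2 and Pax1 the same sites bounded the gene in both genotypes. Around Tcf15, Uncx, Foxc2 and Meox2 the wild-type stretch was narrower through CTCF peaks that InsCBS5-10 lacked. At Tcf15 these were weak, with folds of 2.72 and 2.74 at percentiles 6.87 and 7.25. At Foxc2 RAD21 was called over the site in InsCBS5-10, at 4.61, without a CTCF call. The wild-type stretch was narrower too at Aldh1a2 (88.5 against 148 kb in InsCBS5-10), Foxc1 (111 against 155 kb) and Tbx18 (306 against 315 kb). At Aldh1a2 both wild-type bounding sites had CTCF in InsCBS5-10 as well, without a RAD21 call. At Foxc2 the InsCBS5-10 stretch of 105 kb held Foxl1 as its only other whole gene, and the wild-type one of 12.0 kb held Foxc2 alone.

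**Figure D4:**
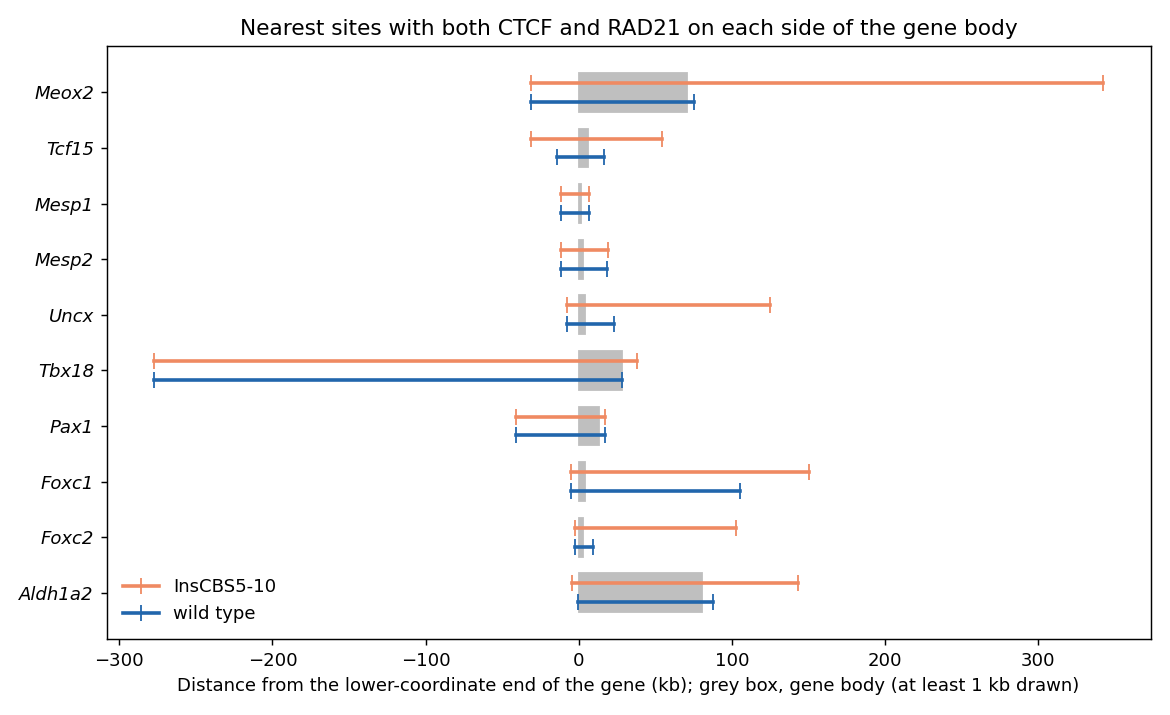
Stretch between the nearest sites with both CTCF and RAD21 outside each gene body, in kb from the lower-coordinate end of the gene, for InsCBS5-10 (upper line) and for wild type with the RAD21 list named wild type (lower line). The lines nearly coincide around Mesp1, Mesp2 and Pax1, and the InsCBS5-10 line is longer at the other genes.

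RAD21 peaks without CTCF in any of the 3 lists were also counted. In InsCBS5-10 they were 0 of the 24 RAD21 peaks within 50 kb, against 4.63% of that list. In the list named wild type they were 20 of 55, or 36.4%, against 43.6%, with a median fold of 3.34. Only 1 of the 20 was above the middle of that list, 46.0 kb to the lower side of Foxc1 at 6.24. The same count was not made over all RAD21 peaks without CTCF. Among the 20, a peak at the Meox2 start was at 3.84 (percentile 41.9) and another at the Mesp2 start at 3.75 (percentile 40.1).

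Other genes of the same programmes were counted in the same way, and the shares of all genes given above (85.8% in DelCBS7-10, 84.6% in InsCBS5-10, 90.0% in wild type and 81.4% for a common site) apply to them too. Of 13 measured genes of segmentation and presomitic mesoderm, 13 had CTCF within 50 kb in DelCBS7-10, 12 in InsCBS5-10 and 13 in wild type. The exception was Dact1, a Wnt signalling regulator, with 1 site in DelCBS7-10 and 2 in wild type. Tbx6, the T-box factor of presomitic mesoderm, had 7 sites in DelCBS7-10, 5 in InsCBS5-10 and 8 in wild type. Lfng, a modifier of Notch, had 7 in DelCBS7-10, 7 in InsCBS5-10 and 9 in wild type, and Dll1, a Notch ligand, had 1 in DelCBS7-10, 1 in InsCBS5-10 and 4 in wild type. Of 15 genes of the somite compartments, 13 had a site in DelCBS7-10, 14 in InsCBS5-10 and 15 in wild type, and 12 had a site common to all 3 lists. CTCF with RAD21 in InsCBS5-10 was found near 13 of the 13 segmentation genes, 12 of the 15 compartment genes and 6 of the 7 retinoic acid genes, against 75.4% of all genes. Counting CTCF sites with or without RAD21, Pax7, a muscle progenitor factor, had 11 in each CTCF list. Eya1 had 1 in wild type and none in either mutant. All 7 retinoic acid genes had a site in every list, and 6 had a common one; the exception was Rdh10, which acts a step before Aldh1a2. The median number of sites per gene was 4 for segmentation, 6 for the compartments and 7 for retinoic acid, against 7 for the 10 genes and 5 over all genes. The median stretch between CTCF-RAD21 sites in InsCBS5-10 was 112 kb for segmentation, 305 kb for the compartments and 62.9 kb for retinoic acid, against 119 kb for the 10 genes and 192 kb over all genes. Within these sets Cyp26a1 and Cyp26c1 had equal counts and a stretch of 56.0 kb each in InsCBS5-10. Myf5 and Myf6 had equal counts and 262 kb each, so the medians may count the same sites more than once.

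By site number and strength, Foxc2 was most like Atoh8, Foxl1 and Mcf2l, at distances of 0.181, 0.222 and 0.249, and Mesp2 most like Map2k1, Mtf1 and Cdc37, at 0.119, 0.139 and 0.166. The distance is Euclidean over 5 log2 peak counts and 5 highest percentiles divided by 100. Foxl1 shares peaks with Foxc2.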

How the data were processed

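Deposited peak lists of 4 labelled libraries, and 1 RAD21 list without a sample record, were used. Per the submitters' processing notes, the authors used cutadapt 4.1 and MACS2 2.2.7.1 on mm10. Per the peak names, the mapping reference was an mm10 altered at HoxB, holding chromosome 11 in 2 versions, and each library had its own peak call. Aligner, control and caller options: not given in the sources used here. The deposited values are a score (10 times the −log10 q), fold enrichment (a ratio over the local background of the same library) and −log10 p and q; the column of summit positions is an offset in bp. The smallest deposited −log10 q was 1.30 in each list. Read numbers, and so depth, are unknown.

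Autosomal, X and Y peaks were used, and summits sharing an interval were collapsed to the strongest. CTCF intervals that overlapped by 1 bp or more across lists were chained to 1 site. A site had RAD21 where a RAD21 interval overlapped one of its CTCF intervals by 1 bp or more. Percentiles are ranks of fold enrichment within a list. Gene bodies came from RefSeq GRCm38.p6, the assembly that mm10 names; genes before 3 Mb outside Y, which lie on unplaced pieces, were left out, and so was chromosome 11 from all shares over genes or sites, since positions beyond HoxB are shifted there. Strand was at hand for 8 of the 10 genes. Shares have exact Clopper-Pearson 95% intervals. With 1 library per group no test was made. Counting was tested on simulated peaks with known answers. All 10 genes are named, with every site where there are at most 6. Otherwise the sites given are the 3 strongest, those in or within 5 kb of the gene, and the nearest with RAD21 on each side. Those above percentile 50 but missing from a list are given too. Further sites, and the neighbouring genes Fendrr, Foxf1, Mthfsd and Srxn1, were added after their values were seen. Members and lists were chosen with earlier results of these data known. Python 3.11.15, pandas 2.3.3 and SciPy 1.17.1 were used.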

Additional observations from a re-analysis of the deposited data

How the results depend on the processing

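Site counts, common sites, RAD21 calls and the number of genes with CTCF in every list stayed within 1.5 times the reported count under all alternatives: a −log10 q of 5 or more, summits at most 100 bp apart in place of overlap, and windows of 25 kb or 100 kb. The 58 sites became 46, 65, 39 and 83 in that order. The genes with CTCF in every list became 9, 10, 8 and 10 of 10. The median stretch between CTCF-RAD21 sites moved with the threshold, to 140 kb in InsCBS5-10 and 71.6 kb in wild type at a −log10 q of 5 or more, and to 124 kb in InsCBS5-10 with summits at most 100 bp apart. No paired analysis was possible because each group has 1 library. Read depth is unknown, so weak calls that differ between lists cannot be told apart from differences in depth.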

Other observations

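The order of sites can be compared over the 26038 sites outside chromosome 11 that all 3 CTCF lists share, which gives each list the same members. In that set the site over Mesp1 stood at percentile 94.2 in DelCBS7-10, 80.7 in InsCBS5-10 and 53.1 in wild type. The site 5.28 kb upstream of Foxc1 stood at 68.2 in DelCBS7-10, 49.1 in InsCBS5-10 and 96.4 in wild type. The site 38.6 kb upstream of Uncx stood at 45.4 in DelCBS7-10, 84.5 in InsCBS5-10 and 94.6 in wild type. The one 9.61 kb upstream of Tbx18 stood at 52.02 in DelCBS7-10, 82.3 in InsCBS5-10 and 93.3 in wild type. These sites were chosen after their values were seen, and with 1 library per group the spread between replicates is unknown.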
